A study of Mus musculus with 25 samples.

Results

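The genes described are 9 matrix metalloproteinases (MMPs) and tissue inhibitors of metalloproteinases (TIMPs) in mouse liver: the proteinases Mmp2, Mmp7, Mmp12, Mmp13, Mmp14 and Mmp19 and the inhibitors Timp1, Timp2 and Timp3. They were picked by symbol out of 41388 genes in the files, with expression differences between these same libraries already known, so their values are a description of the livers and not independent support for any pattern. All 9 were among the 14065 genes that passed the filter on low counts (more than 1 CPM, the count scaled to library size, in at least 2 of 25 libraries). Mmp7 passed only through 3 WD LKO EV libraries, the group in which it was highest, so that its being tested at all depended on that group. Timp1 stands close to the limit in some groups.

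The livers came from male C57B/6J mice aged 20 weeks, each giving 1 RNA sequencing library. Wild-type (WT) mice were Sirt1 floxed littermates without Cre, and liver knockout (LKO) mice carried the same floxed Sirt1 together with Albumin-Cre, which acts in hepatocytes. Every mouse, chow controls included, received an AAV8 virus by tail vein, either as an empty vector (EV) or carrying NAMPT, an enzyme of NAD synthesis, behind a hepatocyte promoter. The groups were Chow WT EV with 3 mice and, after 12 weeks of Western diet (WD), 6 WD WT EV, 6 WD WT NAMPT, 5 WD LKO EV and 5 WD LKO NAMPT. No chow group had the knockout or the NAMPT vector, so the diet was compared in WT EV mice alone.

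MMPs are zinc-dependent endopeptidases, most of them secreted as inactive precursors, that cut collagens, elastin, proteoglycans and many non-matrix proteins. TIMPs bind the active site of mature MMPs, and TIMP2 also takes part in the activation of MMP2 by the membrane proteinase MMP14. In liver the collagenases and elastases come mainly from macrophages and stellate cells, and TIMP1 is a classical transcript of activated stellate cells. Because whole liver was sequenced, more cells of a type and more RNA per cell cannot be told apart.

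Total counts ran from 20166175 to 32937326 per library. Sirt1, the gene targeted in LKO mice, lay at 7.16 to 10.1 CPM in WD LKO EV and at 7.99 to 9.53 CPM in WD WT EV, and at 8.09 to 11.1 CPM in WD LKO NAMPT and 7.62 to 9.32 CPM in WD WT NAMPT, so its count over all exons did not separate the genotypes, and LKO here means the library label. Nampt lay at 46.8 to 77.8 CPM in WD WT NAMPT and at 38.3 to 54.1 CPM in WD WT EV, with overlap. In WD LKO NAMPT it lay at 53.9 to 126.6 CPM and in WD LKO EV at 46.0 to 75.6 CPM, also with overlap. Hepatocyte Alb was above 31261 CPM in every library. Among genes with 1 to 20 counts, between 57.2% and 66.8% of counts were even in each library, against 49.1% to 51.6% among genes with 100 to 2000 counts. A low count is therefore not taken as that many independent reads, and the counting intervals of Mmp7 are given with counts as deposited and with counts halved. The reason for the excess of even counts was not tested.

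One library stood apart for these genes. WD WT NAMPT replicate 6 had 2 counts of Mmp12, where the other 5 libraries of its group had 486 to 3621, and 0 counts of Mmp13 and of Timp1. Its Nampt level of 59.9 CPM lay within the range of the other 5, from 46.8 to 77.8 CPM. It was kept in every fit under its label, and values without it are given beside the calls and correlations it enters.

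The genes lie in several places of the GRCm38 genome. Mmp13 (ENSMUSG00000050578, chr9:7272514-7283333), Mmp12 (ENSMUSG00000049723, chr9:7344381-7369499) and Mmp7 (ENSMUSG00000018623, chr9:7692090-7699585) belong to the metalloproteinase cluster of chromosome 9, all on the forward strand. Mmp2 (ENSMUSG00000031740) is at chr8:92827328-92853417, Mmp14 (ENSMUSG00000000957) at chr14:54431604-54441258 and Mmp19 (ENSMUSG00000025355) at chr10:128790953-128800824. Timp1 (ENSMUSG00000001131) is at chrX:20870166-20874735 inside an intron of Syn1, Timp2 (ENSMUSG00000017466) at chr11:118301069-118355740 and Timp3 (ENSMUSG00000020044) at chr10:86300372-86349506. Some exons are shared with a gene on the other strand, which matters because no source used here states a strand setting. Mmp12 shares 157 exonic bases with Mmp1b and Mmp7 shares 123 with AV064505, and both partners had 0 counts in every library. Mmp19 shares 789 exonic bases with Tmem198b, at 1.70 to 3.71 CPM, and Timp3 shares 1733 with Syn3, at 0.944 to 3.08 CPM.

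The upstream sequences of 4 members are shown because 3 of them (Mmp12, Mmp13 and Timp1) varied together across the livers while Mmp7, from the same chromosome 9 cluster, did not. Each run is the 200 bases before the annotated start in RefSeq (GRCm38.p6), 5′ to 3′ on the gene's strand. Capitals mark TGACTCA or its reverse complement TGAGTCA, the letters bound by AP-1, and TATAAA. Mmp13 is chr9:7272314-7272513, Mmp12 has 2 starts in the table, 1 at the 5′ end of the gene (chr9:7344197-7344396) and 1 within it (chr9:7347174-7347373), Mmp7 is chr9:7691890-7692089 (a second listed start, within the gene, is not shown) and Timp1 is chrX:20869966-20870165, all on the forward strand.
Mmp13: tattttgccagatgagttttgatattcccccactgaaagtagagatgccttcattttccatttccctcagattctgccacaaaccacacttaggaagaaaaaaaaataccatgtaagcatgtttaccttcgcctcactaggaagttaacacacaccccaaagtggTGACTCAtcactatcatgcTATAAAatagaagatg
Mmp12, 5′ start: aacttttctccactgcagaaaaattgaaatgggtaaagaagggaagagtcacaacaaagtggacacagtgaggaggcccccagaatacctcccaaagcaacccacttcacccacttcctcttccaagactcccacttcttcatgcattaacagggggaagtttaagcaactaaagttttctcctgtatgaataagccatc
Mmp12, start within the gene: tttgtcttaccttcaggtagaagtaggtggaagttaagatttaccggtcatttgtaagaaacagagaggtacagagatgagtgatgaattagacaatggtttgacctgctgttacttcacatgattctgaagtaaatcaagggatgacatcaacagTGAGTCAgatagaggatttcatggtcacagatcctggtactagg
Mmp7: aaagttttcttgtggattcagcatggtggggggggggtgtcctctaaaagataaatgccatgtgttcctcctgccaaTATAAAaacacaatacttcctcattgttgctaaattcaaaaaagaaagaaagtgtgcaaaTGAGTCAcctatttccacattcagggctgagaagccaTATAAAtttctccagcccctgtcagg
Timp1: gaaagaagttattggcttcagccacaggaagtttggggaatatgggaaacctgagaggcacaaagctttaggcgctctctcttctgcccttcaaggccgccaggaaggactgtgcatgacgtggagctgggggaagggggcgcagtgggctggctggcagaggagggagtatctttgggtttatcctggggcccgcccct
The AP-1 letters began 35 bases before the start in Mmp13, 63 in Mmp7 and 44 before the start within Mmp12, and the windows of the 5′ start of Mmp12 and of the second Mmp7 start do not hold them. The table holds starts for 7 of the 9 members, and these 3 were the only members with the letters within 250 bases of any listed start, a window in which 4.46% of 32851 promoters and 5.16% of 27025 genes have them. TATAAA, searched on the gene's strand, stood in Mmp13 and at 2 places before the shown Mmp7 start, not before its second start, and in 7.59% of all promoters. Timp1 holds neither set of letters here. At 1 of its 2 starts Mmp7 shares the AP-1 letters with Mmp13 and with 1 of the 2 Mmp12 starts. Only exact matches were searched, and whether the letters bear on the levels of these genes was not tested.

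Divided by exonic length, the 9 mRNAs fell into a steady and a scarce class on chow. Mmp19, a broad-range proteinase, was highest at 22.2 CPM per kb (16.5 to 25.4 across the 3 libraries). Mmp14, the membrane-anchored activator, followed at 10.8 CPM per kb (9.73 to 11.5). Timp2 stood at 3.24, Timp3 at 1.65 and the gelatinase Mmp2 at 0.753 CPM per kb, and the libraries of these 5 genes did not overlap from one to the next. Timp1, Mmp12, Mmp13 and Mmp7 had means of 0.0941, 0.0569, 0.0506 and 0.0246 CPM per kb on chow, an order that rests on a few counts. In WD WT EV the top 4 places and their order were the same, from Mmp19 at 25 to Timp3 at 1.87 CPM per kb. Mmp12 at 0.996, Mmp2 at 0.737 and Timp1 at 0.735 CPM per kb followed with overlapping libraries. In WD WT NAMPT the mean of Mmp12 stood at 5.86 CPM per kb, above Timp2 at 3.47, with libraries of Mmp12 from 0.0149 to 11.8.

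**Figure D1:**
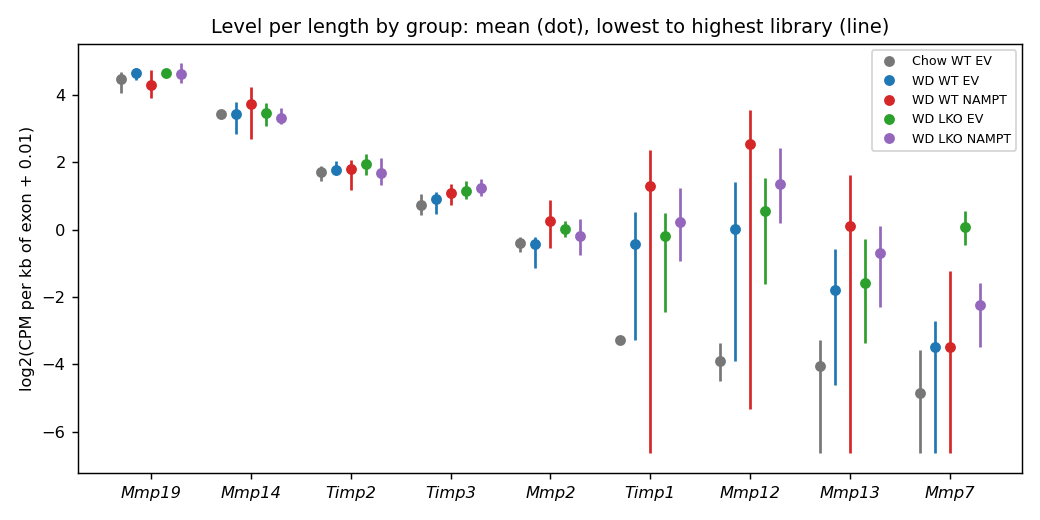
Mean level per length of the 9 genes in the 5 groups, as log2(CPM per kb of exon + 0.01); dots are means and lines run from the lowest to the highest library. Mmp19 and Mmp14 were high in every group, whereas Timp1, Mmp12, Mmp13 and Mmp7 covered a wide range.

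The comparison of WD WT NAMPT with WD WT EV asked what NAMPT delivery did to the transcripts of WT liver on the Western diet. Mmp2, which degrades gelatin and type IV collagen, rose, and Mmp19 fell. These were 2 of 9 members called at an adjusted p of 0.05 or less (limma, adjusted over all genes), where 13.4% of all genes tested were called. The median log2 fold change of the 9 was 0.34, against 0.00 for all genes. None of the 9 had non-overlapping libraries, a state reached by 0.96% of all genes. Without replicate 6 of WD WT NAMPT, 6 members were called, where 20.2% of all genes were: Mmp2, Mmp12, Mmp13, Mmp14 and Timp1 higher and Mmp19 lower. The number of calls changed with single libraries, over all genes too: without WD WT EV replicate 2 or WD WT NAMPT replicate 3, 0 members were called, where 2.07% and 0.938% of all genes were. The edgeR quasi-likelihood test called 0 of the 9 with all libraries, where it called 3.04% of all genes, and 6 of the 9 had an unadjusted limma p below 0.05, as had 30.3% of all genes.

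Mmp12, the macrophage elastase, varied widely between livers of both groups. In WD WT EV its lowest, median and highest libraries were 0.413, 6.60 and 19.03 CPM, and in WD WT NAMPT they were 0.108, 34.1 and 85.4 CPM. The 5 WD WT NAMPT libraries other than replicate 6 lay at 18.1 to 85.4 CPM, and only the highest WD WT EV library, at 19.03 CPM, reached into that range. The fitted log2 fold change was 2.52 ± 0.93 (SE), with an adjusted p of 0.070 (limma). Without replicate 6 it was 2.96 ± 0.62 with an adjusted p of 0.0031 (limma). With all libraries DESeq2 and the edgeR exact test also called it, at adjusted p-values of 0.031 and 0.032. It was called without WD WT NAMPT replicate 5 too (2.71, adjusted p 0.043, limma).

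Mmp13, the main interstitial collagenase of rodents, was high and low in much the same libraries, with fewer counts. WD WT EV libraries had 0.0826, 0.514 and 1.76 CPM at the lowest, median and highest. WD WT NAMPT libraries had 0, 2.44 and 8.18 CPM, the highest being replicate 2 with 347 counts. The groups overlapped at both ends. The log2 fold change was 1.94 ± 0.76 (SE) with an adjusted p of 0.087, and without replicate 6 it was 2.18 ± 0.59 with an adjusted p of 0.012 (both limma).

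Timp1, an inhibitor of most secreted MMPs, was spread in the same way. In WD WT EV it had 2 to 28 counts, with 0.0826, 0.531 and 1.27 CPM at the lowest, median and highest. In WD WT NAMPT it had 0 to 193 counts, with 0, 1.53 and 4.55 CPM. Replicates 1 and 2, at 4.28 and 4.55 CPM, were above every other library of the series. The log2 fold change was 1.62 ± 0.68 (SE) with an adjusted p of 0.109, and without replicate 6 it was 1.90 ± 0.52 with an adjusted p of 0.014 (both limma).

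Mmp2 ran from 1.36 to 2.59 CPM in WD WT EV, with a median of 2.38, and from 2.05 to 5.54 CPM in WD WT NAMPT, with a median of 3.57. All WD WT NAMPT libraries but replicate 6 lay above the highest WD WT EV library. The log2 fold change was 0.91 ± 0.20 (SE) with an adjusted p of 0.012, and without replicate 6 it was 0.98 with an adjusted p of 0.0027 (both limma). The call was lost without WD WT EV replicate 2, its lowest library (log2 fold change 0.64, adjusted p 0.066), and without WD WT NAMPT replicate 3 (0.83, adjusted p 0.059), without quality weights (adjusted p 0.072), with no filter (adjusted p 0.051) and in edgeR's quasi-likelihood test (adjusted p 0.067).

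Mmp14 ran from 18.7 to 35.8 CPM in WD WT EV, with a median of 28.8, and from 16.9 to 48.9 CPM in WD WT NAMPT, with a median of 37.6. Replicate 6 was the lowest of the 25 libraries. The log2 fold change was 0.34 ± 0.15 (SE) with an adjusted p of 0.133, and without replicate 6 it was 0.43 ± 0.14 with an adjusted p of 0.031 (both limma). It was called without WD WT NAMPT replicate 5 too (0.45, adjusted p 0.040). Timp2, the adaptor of the MMP14 and MMP2 pair, had means of 13.3 ± 1.47 and 13.5 ± 2.77 CPM (SD, n = 6 each), a difference smaller than the spread in either group.

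Mmp19 moved the other way. WD WT EV libraries had 74.8, 85.3 and 94.1 CPM at the lowest, median and highest, and WD WT NAMPT libraries had 51.0, 63.8 and 91.0 CPM. The 5 libraries other than replicate 6 lay between 51.0 and 67.9 CPM, below every WD WT EV library, and replicate 6 at 91.0 CPM lay inside the WD WT EV range. The log2 fold change was -0.39 ± 0.10 (SE) with an adjusted p of 0.015, and without replicate 6 it was -0.44 ± 0.10 with an adjusted p of 0.0038 (both limma). The call was lost without WD WT EV replicate 2 (adjusted p 0.057), without WD WT NAMPT replicate 3 (adjusted p 0.077) and with library size alone as scaling (log2 fold change -0.25, adjusted p 0.059). It was also lost under the edgeR exact and quasi-likelihood tests and without quality weights (adjusted p 0.065, 0.080 and 0.080), while DESeq2 called it (adjusted p 0.046). Library size alone puts the median of all genes at 0.16 in this comparison, so the fall of Mmp19 relative to that median stayed at its size.

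Timp3, the matrix-bound inhibitor, had means of 15.2 ± 2.73 CPM in WD WT EV and 17.4 ± 2.49 CPM in WD WT NAMPT (SD, n = 6 each) and was not called. Mmp7, matrilysin, had 0 to 4 counts in WD WT EV libraries and 0 in 4 of 6 WD WT NAMPT libraries. Its summed counts, 14 in WD WT NAMPT and 12 in WD WT EV, gave a ratio of 0.952 (95% exact interval 0.409 to 2.25, counting error only, and 0.274 to 3.43 with counts halved).

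**Figure D2:**
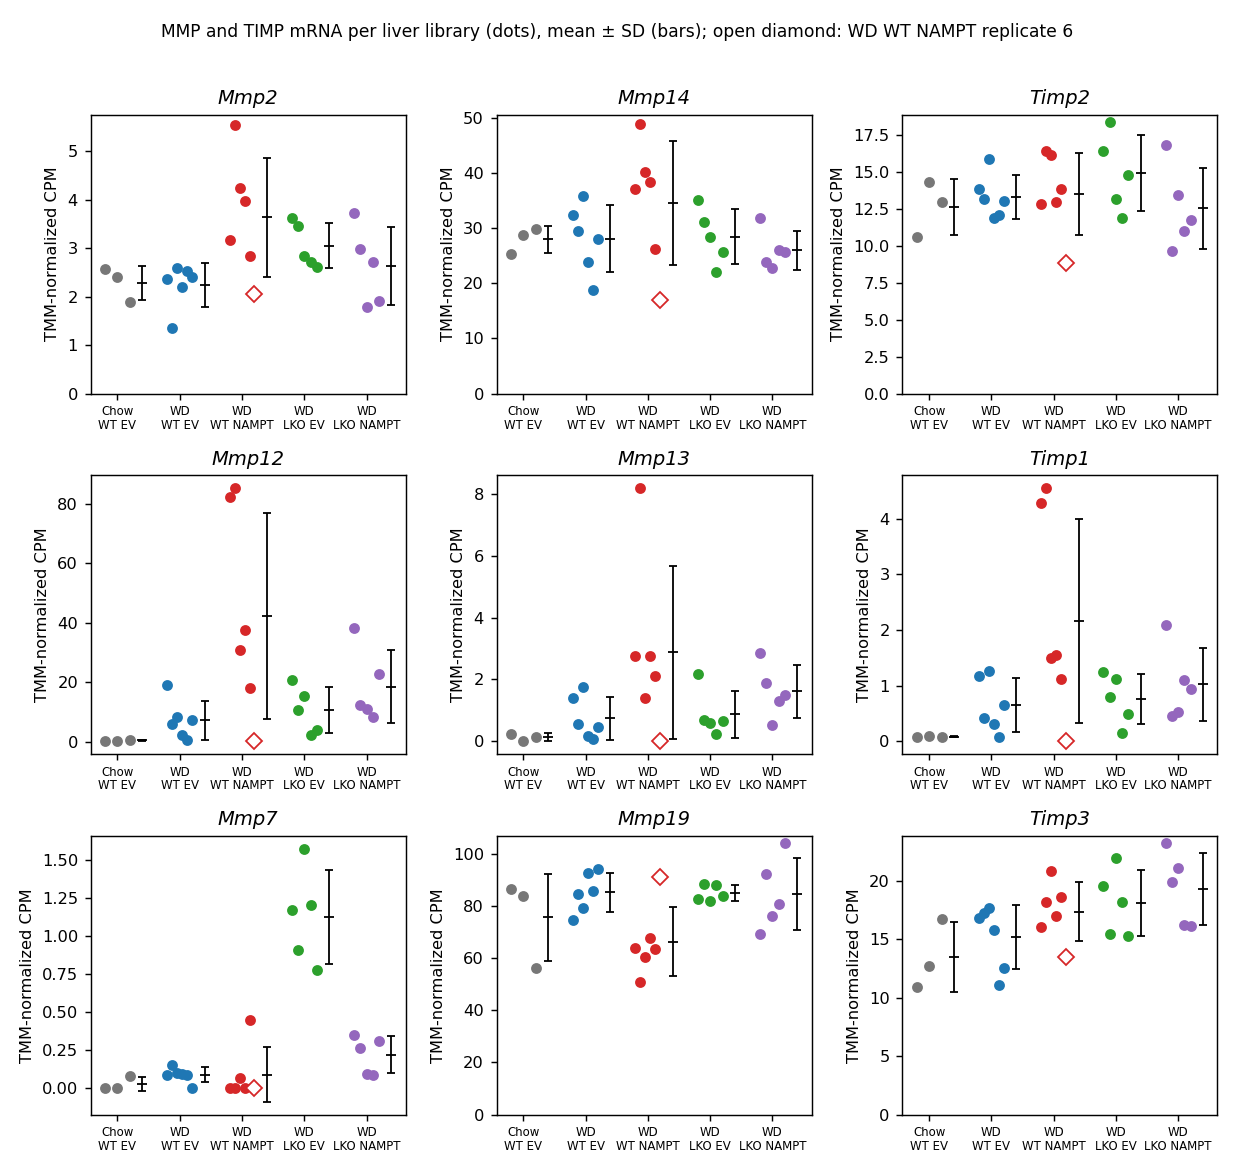
TMM-normalized CPM of the 9 genes in each library by group, with mean and SD beside the dots; the open diamond is WD WT NAMPT replicate 6. In the panels of Mmp12, Mmp13 and Timp1 that library sits at or near 0 while the other WD WT NAMPT libraries reach 85.4, 8.18 and 4.55 CPM, and in the Mmp7 panel all WD LKO EV libraries sit above all others.

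In LKO mice the same vector comparison gave no called member. WD LKO NAMPT against WD LKO EV had 0 of 9 members called, with 0.00711% of all genes called (1 gene), and 2 members (Mmp7 and Timp2) had an unadjusted limma p below 0.05, as had 9.63% of all genes. Mmp12 was 20.7, 10.7, 15.3, 2.28 and 3.79 CPM in WD LKO EV replicates 1 to 5 and 38.4, 12.5, 10.9, 8.21 and 22.8 CPM in WD LKO NAMPT replicates 1 to 5. The groups overlapped between 8.21 and 20.7 CPM, with 2 WD LKO EV libraries below that stretch and 2 WD LKO NAMPT libraries above it. Mmp13 was 0.232 to 2.17 CPM in WD LKO EV and 0.523 to 2.86 CPM in WD LKO NAMPT, a log2 difference of 1.25 ± 0.72 (SE; adjusted p 0.61, limma). Timp1 was 0.155 to 1.25 CPM (4 to 38 counts) and 0.460 to 2.09 CPM (12 to 60 counts) in the same order. Mmp2 was 2.61 to 3.62 CPM in WD LKO EV and 1.79 to 3.73 CPM in WD LKO NAMPT, with a log2 fold change of -0.21 ± 0.20 (SE) and an adjusted p of 0.78 (limma). Mmp19 had means of 85.0 ± 3.11 and 84.5 ± 13.8 CPM (SD, n = 5 each).

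Whether the vector effect differed between the genotypes was tested as an interaction, the LKO effect minus the WT effect. It called 0 of 9 members, with 0.00711% of all genes called, and 4 members had an unadjusted limma p below 0.05, as had 21.2% of all genes. The interaction was -1.12 ± 0.29 (log2, SE) for Mmp2 with an adjusted p of 0.075, 0.45 ± 0.14 for Mmp19 with an adjusted p of 0.098, -0.47 ± 0.19 for Timp2 with an adjusted p of 0.173 and -0.50 ± 0.22 for Mmp14 with an adjusted p of 0.195 (all limma). Without WD WT NAMPT replicate 6, 2 members were called, Mmp2 at -1.19 (adjusted p 0.032) and Mmp19 at 0.49 (adjusted p 0.046), where 4.54% of all genes were called. The same 2 were called without WD LKO NAMPT replicate 1, at -1.20 and 0.50 (adjusted p 0.030 and 0.043), where 4.81% of all genes were called, and Mmp2 alone without WD WT NAMPT replicate 5 (-1.22, adjusted p 0.036), where 2.6% were. With edgeR's quasi-likelihood test 0 members were called, where 0% of all genes were, at adjusted p-values of 0.40 for Mmp2 and 0.46 for Mmp19.

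WD LKO NAMPT against WD WT NAMPT compared the genotypes under the vector. Mmp19 and Mmp7 were called higher in WD LKO NAMPT, 2 of 9 members, where 7.96% of all genes were called, and 5 members had an unadjusted limma p below 0.05, as had 28.6% of all genes. This comparison shares its WD WT NAMPT libraries with the first one. Mmp19 was 69.3, 92.3, 76.2, 80.6 and 104.2 CPM in WD LKO NAMPT replicates 1 to 5, all above the 5 WD WT NAMPT libraries other than replicate 6. Its log2 fold change was 0.45 ± 0.11 (SE) with an adjusted p of 0.021, and without replicate 6 it was 0.49 with an adjusted p of 0.0058 (both limma). It was not called without WD WT NAMPT replicate 2 or 3 (adjusted p 0.056 and 0.076) or without WD LKO NAMPT replicate 2 or 5 (adjusted p 0.186 and 0.132). Mmp2 at -0.54 ± 0.20 and Mmp14 at -0.48 ± 0.16 (log2, SE) missed the threshold with adjusted p-values of 0.081 and 0.061 (limma). Without replicate 6 they were called at -0.60 and -0.57 (adjusted p 0.037 and 0.013), where 16.3% of all genes were called. Both were also called without WD WT NAMPT replicate 5 (-0.64 and -0.59, adjusted p 0.037 and 0.020) and without WD LKO NAMPT replicate 1 (-0.62 and -0.53, adjusted p 0.042 and 0.034), where 13.9% and 16.1% of all genes were called. DESeq2 and both edgeR tests, quasi-likelihood and exact, called 0 of the 9 here, where they called 2.09%, 0.32% and 1.26% of all genes. Their adjusted p-values for Mmp19 were 0.123, 0.161 and 0.149.

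**Figure D3:**
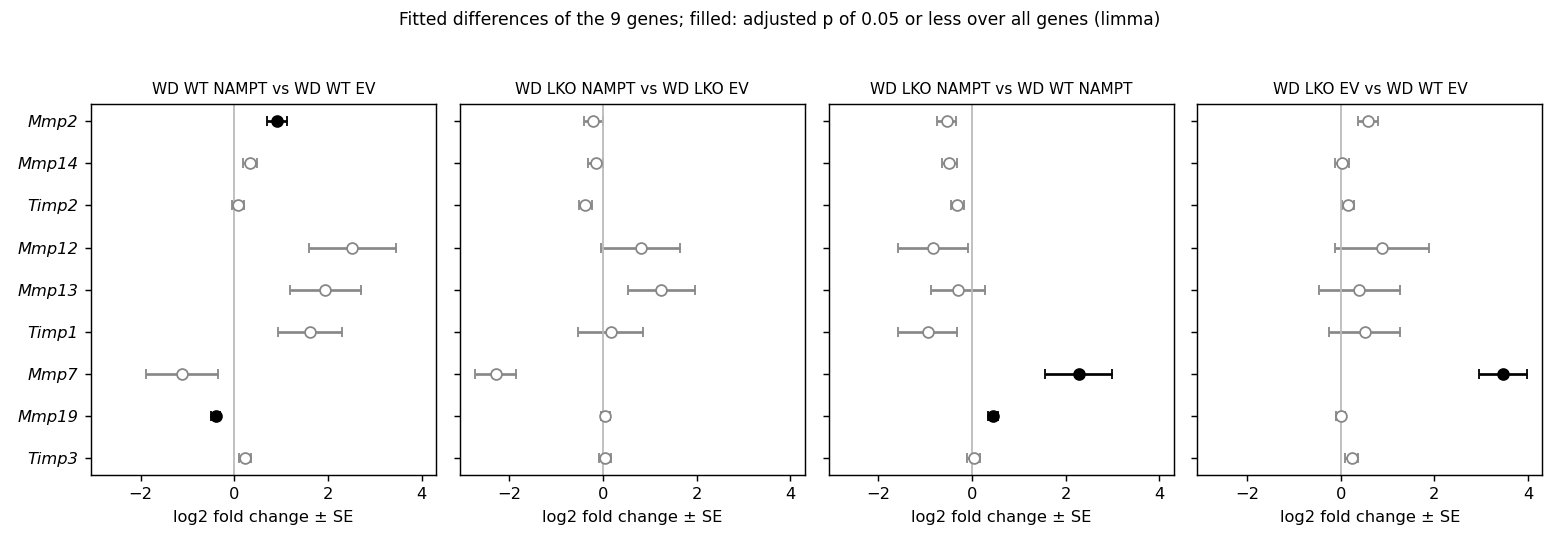
Log2 fold change ± SE of the 9 genes (limma fit over all 25 libraries) in 4 comparisons; filled points have an adjusted p of 0.05 or less over all genes. Mmp2 and Mmp19 are filled for WD WT NAMPT against WD WT EV, at 0.91 and -0.39. Mmp7 and Mmp19 are filled for WD LKO NAMPT against WD WT NAMPT, at 2.28 and 0.45, and Mmp7 for WD LKO EV against WD WT EV, at 3.46. Mmp7 in WD WT NAMPT against WD WT EV rests on 14 and 12 counts.

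Mmp7 set WD LKO EV apart from every other group. WD LKO EV replicates 1 to 5 had 29, 18, 53, 31 and 19 counts, or 1.17, 0.902, 1.57, 1.20 and 0.774 CPM. WD WT EV replicates 1, 2, 4, 6, 7 and 8 had 2, 4, 2, 2, 2 and 0 counts, at most 0.151 CPM. The Chow WT EV libraries had 0, 0 and 2 counts. The highest library outside WD LKO EV was WD WT NAMPT replicate 5, with 12 counts and 0.447 CPM, so no library of another group reached the lowest WD LKO EV library.

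WD LKO EV against WD WT EV compared the genotypes under the empty vector, and Mmp7 was the 1 gene called among all genes, which is 0.00711% of them and 1 of the 9 members. It entered the test only through WD LKO EV libraries, and with no filter on low counts it was not called (adjusted p 0.077). Its log2 fold change was 3.46 ± 0.51 (SE) with an adjusted p of 0.0067 (limma). The summed counts, 150 against 12, gave a ratio of 13.4 (95% exact interval 7.45 to 26.5), and with counts halved the interval was 5.88 to 37.7. DESeq2 and the edgeR exact test called it at adjusted p-values of 0.0070 and 0.00047, and the edgeR quasi-likelihood test did not (adjusted p 0.158). The call was also lost without WD WT EV replicate 2 (log2 fold change 3.74, adjusted p 0.054). Mmp2 was the other member whose libraries did not overlap, by a margin of 2.61 against 2.59 CPM, where 0.59% of all genes did not. It differed by 0.58 ± 0.21 (log2, SE) with an adjusted p of 0.64 (limma). These 2 members had an unadjusted limma p below 0.05, as had 6.33% of all genes.

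WD LKO NAMPT replicates 1 to 5 had 10, 8, 2, 2 and 9 counts of Mmp7, at most 0.349 CPM, all below the WD LKO EV libraries. It was the 1 member without overlap in that comparison, where 1.15% of all genes had none. Because Mmp7 passed the filter only through WD LKO EV libraries, this gap is a description and not support for a difference. The log2 fold change of WD LKO NAMPT against WD LKO EV was -2.29 ± 0.43 (SE) with an adjusted p of 0.069 (limma), and the ratio of summed counts was 0.197 (95% exact interval 0.129 to 0.292). With counts halved the interval was 0.102 to 0.335. The quasi-likelihood test and DESeq2 gave adjusted p-values of 0.53 and 0.31. Against WD WT NAMPT the log2 fold change was 2.28 ± 0.72 (SE) with an adjusted p of 0.0497 (limma), on 31 against 14 counts, 12 of the latter in 1 library. Without WD WT NAMPT replicate 6 it was 2.26 with an adjusted p of 0.039 (limma). The ratio of summed counts was 2.78 (95% exact interval 1.44 to 5.66, and 1.03 to 7.80 with counts halved), and the edgeR and DESeq2 tests gave log2 fold changes of 1.33 to 1.36 with adjusted p-values from 0.30 to 0.33. The limma call was lost without any 1 of WD WT NAMPT replicates 1, 2, 3 and 4 (adjusted p 0.085, 0.118, 0.097 and 0.135) and of WD LKO NAMPT replicates 2, 3 and 5 (0.236, 0.076 and 0.168).

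Mmp7 is known from bile duct epithelium, and the bile duct markers were read beside it. Of 5 listed markers none was called between WD LKO EV and WD WT EV. Krt19 was 0.652 to 1.60 CPM in WD LKO EV and 0.687 to 2.0 CPM in WD WT EV, and Krt7 was 0.902 to 1.47 and 0.458 to 1.39 CPM. Epcam was 1.08 to 2.37 and 0.367 to 2.28 CPM, with a log2 fold change of 0.91 ± 0.29 (SE) and an adjusted p of 0.57 (limma). The summed level of the list was 25.4 to 74.3 CPM in WD LKO EV and 23.4 to 82.2 CPM in WD WT EV. Spp1 was 19.4 to 63.9 and 14.4 to 65.7 CPM, at 0.69 ± 0.31 (log2, SE). Sox9 went the other way, at 2.51 to 5.51 CPM in WD LKO EV and 6.14 to 12.2 CPM in WD WT EV, without overlap, the log2 fold change being -1.02 ± 0.35 (SE) at an adjusted p of 0.64 (limma). The libraries of the other 4 markers overlapped, and the list median was 0.52 (log2) against 0.00 for all genes. In WD LKO NAMPT against WD WT NAMPT, where Mmp7 was higher, Sox9 was called lower at -1.44 (adjusted p 0.028, and 0.020 without replicate 6, limma) and the other 4 were not called. In WD LKO NAMPT against WD LKO EV the list median was -1.12 against 0.02 for all genes, with none of the 5 called and Krt19 at 0.349 to 0.942 CPM in WD LKO NAMPT. The part of bile duct cells in the Mmp7 level was not tested. The genes most like Mmp7 over the 25 libraries were Acot4 (Spearman rho 0.811), Gapdh (0.776) and Gamt (0.775), a description with no test.

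WD WT EV against Chow WT EV asked about the diet. No member was called, 0 of 9, where 22% of all genes were, and 2 members (Mmp7 and Timp3) had an unadjusted limma p below 0.05, as had 35.1% of all genes. Mmp12 had 6, 8 and 16 counts on chow, and 10 to 451 counts in WD WT EV. The Mmp12 libraries overlapped only through WD WT EV replicate 7, at 0.413 CPM against a chow maximum of 0.631. Mmp13 had 6, 0 and 4 counts on chow and 2 to 36 in WD WT EV. Timp1 had 2 counts in each chow library, and WD WT EV replicate 7, also with 2, was the 1 WD WT EV library at the chow level. Log2 fold changes were 3.71 ± 2.75 for Mmp12, 2.81 ± 1.62 for Mmp13 and 2.21 ± 1.26 for Timp1 (SE), with adjusted p-values of 0.35, 0.22 and 0.22 (limma). Without Chow WT EV replicate 2, which has 0 counts of Mmp13, the Mmp13 value was 1.26. DESeq2 called Mmp12 and Timp1 and the edgeR exact test Mmp12 (log2 fold change 4.11, adjusted p 0.011). The diet groups overlapped for Mmp2, Mmp14, Mmp19, Timp2 and Timp3: their chow means were 2.29 ± 0.35, 27.9 ± 2.40, 75.6 ± 16.8, 12.6 ± 1.90 and 13.5 ± 2.99 CPM (SD, n = 3). The Mmp7 counts, 12 in 6 libraries against 2 in 3, gave a ratio of 3.12 with an exact 95% interval of 0.695 to 28.7, and of 0.379 to 144 with counts halved. Without WD WT EV replicate 8, Mmp7 was called in the limma fit (adjusted p 0.042).

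Across the 25 libraries Mmp12, Mmp13 and Timp1 varied together. Spearman rho of log2(CPM + 0.5) was 0.926 for Mmp12 with Timp1, 0.913 for Mmp12 with Mmp13 and 0.897 for Mmp13 with Timp1. Pearson r was 0.937, 0.902 and 0.912, and 0.928, 0.898 and 0.875 after leaving out the 2 libraries farthest from the median of the first gene. After each library was centred on its group mean, rho was 0.855, 0.738 and 0.698, so the genes also varied together among mice of a group. Libraries share depth and scaling, and these values are a description with no test. Mmp14 followed the trio, with rho of 0.780 with Timp1 and 0.671 with Mmp12, and Mmp2 had rho of 0.690 with Timp1. Mmp19 ran against them, with rho of -0.668 with Mmp14 and -0.565 with Timp1. Mmp7 stood aside, with rho of 0.114 with Mmp12 and 0.058 with Timp1. Without WD WT NAMPT replicate 6 rho was 0.917 for Mmp12 with Timp1, 0.903 for Mmp12 with Mmp13 and 0.885 for Mmp13 with Timp1, and after centring 0.873, 0.726 and 0.670. In the same 24 libraries Mmp14 had 0.751 with Timp1 and 0.628 with Mmp12, Mmp2 had 0.677 with Timp1, Mmp19 had -0.649 with Mmp14, -0.541 with Timp1 and -0.488 with Mmp12, and Mmp7 had 0.032 with Mmp12 and -0.029 with Timp1.

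**Figure D4:**
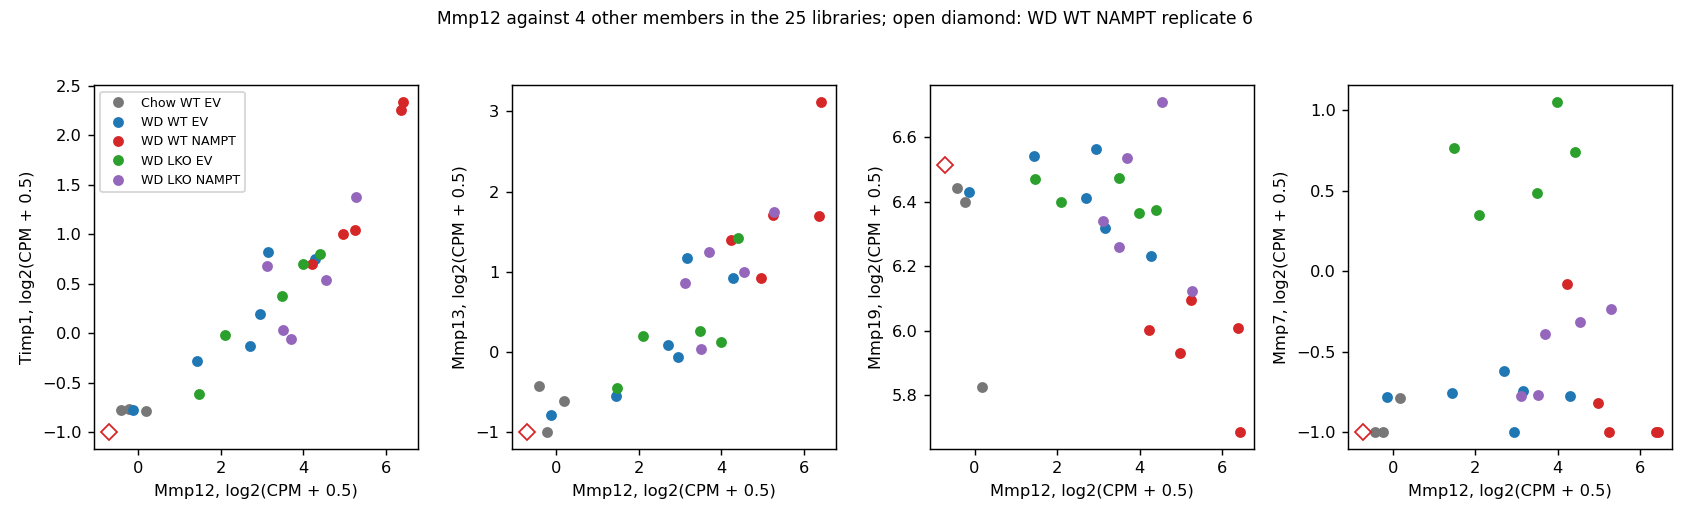
Mmp12 against Timp1, Mmp13, Mmp19 and Mmp7 in the 25 libraries, each axis as log2(CPM + 0.5); colours are the groups and the open diamond is WD WT NAMPT replicate 6. Timp1 and Mmp13 climb with Mmp12 (rho 0.926 and 0.913), Mmp19 declines with it (rho -0.511), and Mmp7 is high in the WD LKO EV libraries at every level of Mmp12.

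The genes whose level was most like each member, by Spearman rho over the 25 libraries and with members left out, differed between the classes. For Mmp12 they were Ear2 (0.964), the beta-glucan receptor Clec7a (0.961) and the complement receptor C5ar1 (0.959). For Mmp13 they were Pkm (0.927), the macrophage gene Cd68 (0.927) and Lgals3 (0.914). For Timp1 they were the fibrillar collagen gene Col1a1 (0.971), the myeloid integrin Itgax (0.967) and Col4a1 (0.965). For Mmp14 the 2 highest named genes were Map4k4 (0.932) and Abcc5 (0.926), and for Mmp2 they were Pck2 and Agrn (both 0.864) and Clec4b1 (0.861). For Mmp19 they were Spns2 (0.883), Derl2 (0.873) and Mtfr1l (0.873). Timp2 and Timp3 had lower best values, 0.785 with Jdp2 and 0.792 with 5031439G07Rik. Without WD WT NAMPT replicate 6 none of the 27 values of these nearest genes, the 3 of Mmp7 included, moved by more than 0.031.

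Markers of macrophages and other cell types were read beside the trio in the WT comparison. Of 6 recruited macrophage markers (Trem2, Gpnmb, Cd9, Itgax, Ccr2, Lgals3), 3 were called higher in WD WT NAMPT than in WD WT EV, where 13.4% of all genes were called: Itgax, Trem2 and Lgals3, with log2 fold changes of 2.11, 1.92 and 1.46. Their summed level was 18.3 to 75.2 CPM in WD WT EV, 66.9 to 304 CPM in the 5 WD WT NAMPT libraries other than replicate 6, and 16.4 CPM in replicate 6, against 16.5 to 21.5 CPM on chow. In WD LKO EV it was 22.6 to 69.0 and in WD LKO NAMPT 36.0 to 150.1 CPM. Of 6 Kupffer cell markers 3 were called higher in WD WT NAMPT, namely Marco, Cd5l and C1qa at 2.79, 0.91 and 0.72, with sums of 248 to 359 CPM in WD WT EV and 229 CPM in replicate 6 against 384 to 651 in the other 5. Without replicate 6 all 6 recruited macrophage and 4 Kupffer markers were called, where 20.2% of all genes were, while without WD WT NAMPT replicate 3 none of either list was, where 0.938% were. Without WD WT EV replicate 2, 0 recruited macrophage and 3 Kupffer markers were called. The recruited macrophage count was also 1 without WD WT EV replicate 6, 5 and 4 without WD WT EV replicates 1 and 4, and 6 without WD WT NAMPT replicate 5.

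Of 7 stellate markers, Des, Pdgfrb and Rgs5 were called higher in WD WT NAMPT than in WD WT EV, at log2 fold changes of 0.66, 0.57 and 0.49. None of 5 myofibroblast markers was called, where 13.4% of all genes were. The other 4 stellate markers were not called, with Ecm1 at -0.27, Hhip at -0.23, Lrat at -0.03 and Reln at 0.08, and the list median was 0.08 against 0.00 for all genes. Without WD WT NAMPT replicate 6, where 20.2% of all genes were called, the same 3 were called higher, Ecm1 was called lower at -0.30 (adjusted p 0.031) and the myofibroblast marker Tagln higher at 0.54 (adjusted p 0.046, limma). The stellate count was 1 without WD WT EV replicate 2 or WD WT NAMPT replicate 3, where 2.07% and 0.938% of all genes were called. It was 2 without WD WT EV replicate 6 or 7 or WD WT NAMPT replicate 1 or 2, and 4 without WD WT EV replicate 1 or 4 or WD WT NAMPT replicate 5. The stellate sum was 338 to 386 CPM in WD WT EV and 319 to 402 CPM in WD WT NAMPT, and the myofibroblast sum 19.2 to 43.5 and 16.5 to 48.1 CPM. Of 5 neutrophil markers S100a9 and Csf3r were called higher, at 1.57 and 1.28, with a sum of 2.73 to 7.66 CPM in WD WT EV and 3.50 to 26.1 CPM in WD WT NAMPT. Without WD WT NAMPT replicate 6 S100a8 was called as well, at 1.44 (adjusted p 0.037, limma). The neutrophil count was 0 without WD WT NAMPT replicate 3 and 3 without WD WT NAMPT replicate 5. It was 1 without WD WT EV replicate 2, 6, 7 or 8 or WD WT NAMPT replicate 1, 2 or 4. Ly6g, the defining neutrophil marker, had at most 2 counts in any library. The part of these cell types in the levels of the MMPs and TIMPs was not tested.

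The remaining members of the family were mostly near the limit of detection. Of 18 other MMP and TIMP genes 5 passed the filter. Of these 1, the gelatinase Mmp9, was called higher in WD WT NAMPT than in WD WT EV, where 13.4% of all genes were called. It was at 1.20 ± 0.32 (log2, SE, adjusted p 0.018, limma). No gene of this list was called there without WD WT EV replicate 2 or 6 or without WD WT NAMPT replicate 3. Without WD WT NAMPT replicate 6 Mmp9 was at 1.23 and Mmp15 was called higher too at 0.34 (adjusted p 0.0096 and 0.042, limma), where 20.2% of all genes were called. In the same fit Mmp9 was called lower in WD LKO NAMPT than in WD WT NAMPT at -1.01 (adjusted p 0.032, limma), where 16.3% were. Mmp9 was 0.642 to 1.10 CPM in WD WT EV and 0.916 to 3.54 CPM in WD WT NAMPT. Mmp15, a membrane-type MMP, ran from 40.9 to 84.9 CPM over all libraries. Mmp11 was called lower on Western diet than on chow, at -0.91 ± 0.25 (log2, SE, adjusted p 0.011, limma), where 22% of all genes were called. In that comparison the count of this list was 0 to 1 when 1 library was left out. The collagenase Mmp8 and the stromelysins Mmp3 and Mmp10 did not pass the filter, with at most 31, 4 and 2 counts in any library.

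Plasmin, which activates several precursor MMPs, depends on plasminogen activators. Of 10 listed regulators 4 were called higher in WD WT NAMPT than in WD WT EV and none lower, where 13.4% of all genes were called. The count was 0 without WD WT EV replicate 2 or WD WT NAMPT replicate 3 and 1 without WD WT EV replicate 6 or WD WT NAMPT replicate 2. The urokinase receptor Plaur rose by a log2 fold change of 1.77 ± 0.50, the activator Plat by 1.66 ± 0.46 and the urokinase Plau by 0.99 ± 0.25 (SE). On Western diet against chow 1 of the 10 was called higher and 2 lower, where 22% of all genes were called. Plasminogen (Plg) was lower at -0.39 ± 0.11 and the plasmin inhibitor Serpinf2 at -0.50 ± 0.12 (SE). That diet count ran from 0 to 4 when 1 library was left out. None of the 10 was called in WD LKO NAMPT against WD LKO EV or against WD WT NAMPT. Without WD WT NAMPT replicate 6, 4 of the 10 were called higher in WD WT NAMPT than in WD WT EV, Plaur at 1.96, Plat at 1.83 and Plau at 1.08, and 4 were called lower in WD LKO NAMPT than in WD WT NAMPT, Plaur at -1.47, Plat at -1.43 and Plau at -0.69 among them. The list median in WD WT NAMPT was 0.12, against 0.00 for all genes.

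Among 14 ADAM and ADAMTS proteinases, relatives that shed membrane proteins or cut proteoglycans, 5 were called higher in WD WT NAMPT than in WD WT EV and none lower, where 13.4% of all genes were called. Adam8, a myeloid sheddase, was at 2.28 ± 0.67, Adamts15 at 1.18 ± 0.31 and the procollagen proteinase Adamts2 at 0.82 ± 0.19 (log2, SE). Adamts5, Adamts1 and Adamts2 were lower in WD LKO NAMPT than in WD WT NAMPT, at -0.81, -0.68 and -0.65. Of 12 matrix genes that encode MMP substrates, 7 were called higher in WD WT NAMPT than in WD WT EV. The largest were Vcan at 2.03 ± 0.62, Col1a1 at 1.70 ± 0.48 and Col3a1 at 1.18 ± 0.33 (log2, SE), with a list median of 0.80. In WD LKO NAMPT against WD WT NAMPT 2 of the 12 were called lower, Lum at -0.90 and Lamb1 at -0.44. On Western diet against chow Col3a1 at 1.11 and Col4a2 at 0.56 were called higher, 2 of the 12, where 22% of all genes were called. That count was 0 to 2 when 1 library was left out. Without replicate 6, 10 of 14 proteinases and 9 of 12 matrix genes were called in the first comparison, and 7 of each list were called lower in WD LKO NAMPT than in WD WT NAMPT. The first-comparison counts fell to 1 and 0 without WD WT EV replicate 2, to 2 and 1 without WD WT EV replicate 6, to 3 and 1 without WD WT NAMPT replicate 2 and to 0 and 0 without WD WT NAMPT replicate 3, and reached 10 and 9 without WD WT NAMPT replicate 5 and 8 and 9 without WD WT EV replicate 1 or 4. The matrix count was 4 without WD WT EV replicate 8 or WD WT NAMPT replicate 1. In WD LKO NAMPT against WD WT NAMPT no gene of any list was called without WD LKO NAMPT replicate 2, 3 or 5, and none of these 2 lists without WD WT NAMPT replicate 2 or 3. In WD LKO NAMPT against WD LKO EV no gene of either list was called.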

How the data were processed

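Poly-A selected liver RNA was sequenced in 25 mice. Per the labels, the authors aligned reads with STAR 2.5.1a to GRCm38 and counted them per gene with featureCounts 1.4.6-p5. The deposited files hold raw counts for 41388 genes, with CPM and RPKM columns derived by the authors from them. Both columns were recomputed (largest relative deviation 5.9e-14), and counts were used.

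Symbols came from a GENCODE annotation that lists 40254 identifiers. Genes with more than 1 CPM in at least 2 libraries were kept and ribosomal RNA genes (355, of which 4 passed) were left out. Counts were fitted with limma 3.58.1 voomWithQualityWeights (edgeR 4.0.16 TMM factors, R 4.3.3), 1 mean per group, all libraries together. Tests were moderated limma tests with Benjamini-Hochberg adjustment over 14065 genes, called at 0.05. The levels are TMM-normalized CPM. Group labels came from the titles, which name NAMPT where the treatment text of the labels names SIRT1 as the insert. Members and lists were chosen with earlier results of these data known. All 9 members are named, together with up to 3 called genes with the largest change per list and comparison and the 3 genes most like each member; further named genes were chosen after their values were seen. One listed gene that this rule names is not reported here.

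Alternatives were the edgeR quasi-likelihood and exact tests, DESeq2 1.42.0, no quality weights, RLE factors, library size alone, no filter, only the groups compared, a replicate block and leaving out each library. The procedure was tested on simulated data. Libraries of a group differed by at least 15.1 chi-square per degree of freedom, so none was a copy. Ratios of summed counts have 95% exact intervals that cover counting error only. The intervals with counts halved were chosen after seeing the data.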

Additional observations from a re-analysis of the deposited data

Results flagged for a closer look

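Of 36 sets of libraries (9 genes in 4 groups of 5 or 6), 4 had a highest or lowest library far from the rest by Dixon's 95% limit. About 1 in 20 sets would pass it if the values were normally distributed and the sets independent. The CPM of low-count genes are skewed and several of the genes varied together, so that rate is no reference here. Mmp2 in WD WT EV replicate 2 was low at 1.36 CPM, against 2.20 CPM for the next library. Mmp7 in WD WT NAMPT replicate 5 was high at 0.447 CPM, against 0.0668 CPM. Mmp13 in WD WT NAMPT replicate 2 was high at 8.18 CPM, against 2.77 CPM, and Mmp13 in WD LKO EV replicate 1 was high at 2.17 CPM, against 0.702 CPM. No explanation of these libraries was tested. WD WT NAMPT replicate 6, low for Mmp12, Mmp13 and Timp1, did not pass this limit for any of the 9 genes, since the other libraries of its group are themselves widely spread.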

How the results depend on the processing

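The number of members called was 2 in WD WT NAMPT against WD WT EV, where 13.4% of all genes were called. It was 0 with the edgeR quasi-likelihood test and without quality weights (3.04% and 1.37% of all genes). It was 1 with library size alone (Mmp2, with 16.2% of all genes) and with no filter (Mmp19, with 1.8%). It was 3 with DESeq2 (Mmp2, Mmp12, Mmp19, with 8.49%) and 2 with the edgeR exact test (Mmp2 and Mmp12, with 6.11%). It ranged from 0 to 6 when 1 library was left out, with 0.938% to 20.2% of all genes. In WD LKO NAMPT against WD WT NAMPT it was 2, with 7.96% of all genes called. It became 0 with DESeq2 (2.09% of all genes), the edgeR quasi-likelihood and exact tests (0.32% and 1.26%), no quality weights (0.27%), no filter (0.412%) and only the groups compared (0.0853%). With library size alone it was 1 (5.97%), and it was 0 to 4 when 1 library was left out (0% to 16.3%). In WD LKO EV against WD WT EV it was 1, with 0.00711% of all genes called. It became 0 with the edgeR quasi-likelihood test (0% of all genes) and with no filter (0.00343%), with 0 to 1 when 1 library was left out (0% to 0.0355%). In WD WT EV against Chow WT EV it was 0, with 22% of all genes called. It became 1 with the edgeR exact test (10.4% of all genes) and 2 with DESeq2 (12.4%), with 0 to 1 when 1 library was left out (5.99% to 22.5%). For the interaction it was 0 (0.00711% of all genes), with 0 to 2 when 1 library was left out (0.00711% to 4.81%). DESeq2 gave no adjusted p for the 9 genes there. The causes of these changes were not tested. No fold change of a member stated in the sentences of the report changed direction under any alternative run; those that are only plotted were not part of this. Library size alone moved the median log2 fold change of all genes to 0.16 in WD WT NAMPT against WD WT EV, -0.12 in WD LKO NAMPT against WD WT NAMPT and -0.15 in the interaction.

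With the replicate number as a block, 0 members were called in WD LKO NAMPT against WD WT NAMPT (2.93% of all genes), 0 in WD LKO EV against WD WT EV (0.0142%) and 4 in the diet comparison (27.3%). The count was 2 (Mmp2 and Mmp12) in WD WT NAMPT against WD WT EV (6.29%), 0 in WD LKO NAMPT against WD LKO EV (0%) and 0 for the interaction (0.469%). Same-numbered libraries of different groups are different mice, and their deviations correlated between -0.38 and 0.42, so the numbers were not taken to pair the samples. Low counts limit Mmp7 and, on chow, Mmp12, Mmp13 and Timp1.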
